A study of Mus musculus with 12 samples.

Results

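Molecular chaperones and heat shock proteins were examined in the epithelium of the mouse small intestine, in stem cells of the crypt (ISC) and adult enterocytes of the villus (AE), each from young and from old animals. The members were all genes of the deposited count table whose symbol starts with Hsp followed by a digit or a letter from a to h, with Dnaja, Dnajb or Dnajc and a number, with Cct and a number, or with Bag and a number. Pseudogene symbols and Hspg2, which encodes the basement membrane proteoglycan perlecan, were left out. This gave 89 of 34245 genes. By family there were 11 Hsp70 genes, 3 Hsp110 genes, 3 Hsp90 genes, 2 genes of the mitochondrial Hsp60 and Hsp10 chaperonin, 9 Cct genes, 7 genes of the BAG family and the related exchange factor Hspbp1, 8 genes named as small heat shock proteins, Hspbap1, and 4 Dnaja, 13 Dnajb and 28 Dnajc genes. The choice rests on names alone, and Hspb11 for example encodes a protein of intraflagellar transport.

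Chaperones bind unfolded or unassembled polypeptides and help them reach and keep their folded state. Hsp70 proteins do so in cycles of ATP hydrolysis that J-domain proteins (DNAJ) start and nucleotide exchange factors such as Hsp110 and BAG proteins end, Hsp90 acts late on kinases and receptors, and the chaperonin ring CCT folds actin and tubulin. Some members are housekeeping genes of dividing, protein-synthesising cells, others are induced by heat shock factor HSF1 when proteins misfold in the cytosol, and yet others belong to the unfolded protein response of the endoplasmic reticulum (ER), on which secretory and absorptive cells of the gut depend.

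Each of the 4 groups had 3 libraries of poly(A) RNA from sorted cells, namely young ISC, old ISC, young AE and old AE. All donors were C57BL/6 Lgr5-GFP mice, males that carry a reporter with EGFP and creERT2 in the Lgr5 gene, aged 8 months in the young and 27 months in the old groups. ISC were the GFP-high, DAPI-negative cells of crypt suspensions, so the gate itself selected for activity of the Lgr5 locus. AE were the Epcam-high, CD31- CD45- DAPI- cells of villus suspensions. Villus cells were stained with antibodies at room temperature before the sort and the ISC were not, and crypts were brought to single cells with dispase and collagenase, so cell type and these handling steps cannot be told apart. Column codes (Y1, Y2 and Y3 for young, O1, O3 and O5 for old) are shared by the ISC and AE columns of an age, and the methods list 3 animal ages per cohort, as many as there are codes. This would fit ISC and AE libraries of a code coming from the same mouse, but no source used here says so. The p-values therefore measure only the spread between these libraries.

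The libraries held 11893817 to 26796461 counts apart from the AE library Y3, which held 110794420. Lgr5 lay at 79.6 to 146 CPM (read counts divided by the TMM-scaled library total in units of 1e+06) in the ISC libraries and 0.551 to 4.71 in AE, and the enterocyte marker Vil1, a brush border actin-bundling protein, at 416 to 752 CPM in ISC and 4268 to 6158 in AE. The Epcam gate also keeps goblet cells: the summed level of the goblet markers was 28050 to 56930 CPM in AE against 1391 to 2242 in ISC. At each age 6 of 7 of these markers were called higher in AE, and in old mice 1 was called lower (log2 difference -1.02). In bulk libraries, fewer cells of a type and less RNA per cell cannot be told apart. The AE libraries differed in their remaining crypt signal, with summed stem cell markers of 265, 690.4 and 136.4 CPM in young AE Y1, Y2 and Y3 and 155.6, 242.5 and 217.1 CPM in old AE O1, O3 and O5.

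The promoters of some members are shown first, with their matches to 2 kinds of short sequence. The heat shock element bound by HSF1 was searched on both strands as the units GAA, TTC and GAA with any 2 bases between neighbours, and the shorter pair of units, which it contains, as GAANNTTC or TTCNNGAA. RefSeq promoter windows on GRCm38.p6, each from 250 bases before to 50 bases after the annotated start, were on hand for 73 of the 89 members. The long form was found in 4 of these 73 (5.48%: Dnajb6, Hspd1, Hspe1 and Hsph1) against 0.662% of all 27025 genes with windows, and the pair in 21 of 73 (28.8%) against 17%. A gene with several windows counted as a match if any of them matched. Among 15 members classed here as textbook HSF1 targets, 12 had a promoter window, and 10 of them (83.3%) held the pair. Those with the pair were Bag3, Cct2, Dnaja1, Dnajb4, Hspa1a, Hspa1b, Hspb1, Hspd1, Hspe1 and Hsph1, and those without it were Dnajb1 and Hspa4l. The list was made of known targets of the factor that binds this element, so the share was no independent test. Hsp90aa1, Hsp90ab1 and Hspa8 had no window. The pair also occurred in members outside that list, such as Cct5, Cct6a, Dnajc27 and the ER chaperone Dnajc10. The windows of Hspe1 (chr1:55087898-55088197, plus strand), Hsph1 (chr5:149636266-149636565, minus strand; the first of 2 annotated starts), Hspa1a (chr17:34972107-34972406, minus strand) and Hspa1b (chr17:34959189-34959488, minus strand) follow, from 5′ to 3′ on the strand of the gene, with every pair of heat shock units in capitals.
Hspe1: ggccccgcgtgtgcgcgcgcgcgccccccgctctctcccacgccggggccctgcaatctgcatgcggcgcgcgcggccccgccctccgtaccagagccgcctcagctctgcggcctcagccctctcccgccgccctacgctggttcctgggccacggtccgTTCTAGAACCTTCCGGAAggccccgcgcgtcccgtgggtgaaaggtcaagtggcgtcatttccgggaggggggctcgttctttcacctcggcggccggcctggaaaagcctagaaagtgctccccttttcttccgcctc
Hsph1: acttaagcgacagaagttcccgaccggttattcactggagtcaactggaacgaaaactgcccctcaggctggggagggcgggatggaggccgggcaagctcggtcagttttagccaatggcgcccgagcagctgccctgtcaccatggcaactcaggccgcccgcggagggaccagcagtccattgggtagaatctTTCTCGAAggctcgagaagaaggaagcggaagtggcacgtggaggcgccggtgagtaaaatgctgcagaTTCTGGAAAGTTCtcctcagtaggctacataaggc
Hspa1a: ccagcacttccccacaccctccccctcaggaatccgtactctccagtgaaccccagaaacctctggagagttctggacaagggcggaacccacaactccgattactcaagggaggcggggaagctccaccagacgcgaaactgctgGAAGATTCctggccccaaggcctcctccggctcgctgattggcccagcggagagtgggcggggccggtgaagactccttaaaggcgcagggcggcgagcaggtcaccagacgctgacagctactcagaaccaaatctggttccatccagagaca
Hspa1b: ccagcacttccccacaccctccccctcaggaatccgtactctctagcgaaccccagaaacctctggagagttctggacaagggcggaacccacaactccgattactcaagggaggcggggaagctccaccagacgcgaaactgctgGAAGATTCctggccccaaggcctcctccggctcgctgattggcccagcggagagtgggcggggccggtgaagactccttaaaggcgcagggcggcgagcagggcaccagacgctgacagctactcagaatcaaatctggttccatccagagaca
In Hspe1 the overlapping long elements began 89 and 84 bases before the start. Hspd1, its neighbour on the opposite strand, has a window (chr1:55087883-55088182, minus strand) that covers the same elements. In Hsph1 the long element lay 15 bases after the start and a separate pair 54 bases before it. Hspa1a and Hspa1b each had 1 pair, 104 bases before the start, and their windows were equal at 296 of 300 positions.

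The ER stress element, searched on both strands as CCAAT, any 9 bases and CCACG, occurred in 0.137% of all genes with windows and in 3 of the 73 members (4.11%). These were Hspa5, Hsp90b1 and Dnajc3, all among the 10 ER chaperones with a window, and none of the 12 HSF1 targets with a window held it. The windows of Hspa5 (chr2:34771840-34772139, plus strand) and Hsp90b1 (chr10:86705395-86705694, minus strand) are given with the element in capitals.
Hspa5: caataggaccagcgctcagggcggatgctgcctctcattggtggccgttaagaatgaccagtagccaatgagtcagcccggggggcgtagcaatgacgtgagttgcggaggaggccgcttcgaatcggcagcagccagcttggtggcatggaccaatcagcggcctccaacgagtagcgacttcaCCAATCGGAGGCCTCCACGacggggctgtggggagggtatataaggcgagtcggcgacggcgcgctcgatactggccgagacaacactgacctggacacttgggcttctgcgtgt
Hsp90b1: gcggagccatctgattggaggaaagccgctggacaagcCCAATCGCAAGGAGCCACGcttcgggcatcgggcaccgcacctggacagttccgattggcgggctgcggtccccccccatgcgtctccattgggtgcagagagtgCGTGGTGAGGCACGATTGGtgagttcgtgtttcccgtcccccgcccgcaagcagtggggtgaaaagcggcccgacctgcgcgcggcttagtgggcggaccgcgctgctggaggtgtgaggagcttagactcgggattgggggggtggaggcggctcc
The element lay 65 bases before the start of Hspa5. In Hsp90b1 it occurred 212 bases before the start and again, on the opposite strand, 107 bases before it. A match of letters is a description of the window and shows neither binding nor use.

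Of the 89 members, 6 had no count in any library, namely Dnajc5b, Cct8l1, Dnajc5g, Dnajb8, Hspb9 and Hspb3, and 10 had 3 counts or fewer in every library. Hspb8, a small heat shock protein of autophagy, was among the latter with 1 count in a single ISC library. Library totals rest on reads amplified by PCR without molecular identifiers, so such limits cover counting error only. Levels of different genes are compared only as CPM per kb of exon. Only uniquely mapped reads were counted, which can lower the level of genes whose 50-base transcript windows occur in other transcripts. That share was 66.3% for Hspa1a, 62.3% for Hspa1b, 47.5% for Hsp90aa1, 39.7% for Hspd1 and 39.4% for Hspa8. It was 3.44% for Hsp90ab1 and 0% for Hsph1.

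Per kb of exon, Hsp90ab1, the constitutive cytosolic Hsp90, was the most abundant member in every group. Its level was 1106 ± 125 CPM per kb in young ISC, 991.1 ± 111 in old ISC, 337.4 ± 144 in young AE and 164 ± 2.86 in old AE (mean ± SD, n = 3). The members that followed it differed between the cell types. In young ISC they were the constitutive cytosolic Hsp70 Hspa8 (224 ± 49.9 CPM per kb), the mitochondrial chaperonin Hspd1 (211.9 ± 8.74), the ER Hsp90 Hsp90b1 (184.2 ± 18), the Hsp70 exchange factor Bag1 (184 ± 38.5) and the mitochondrial Hsp70 Hspa9 (181 ± 8.43). The libraries of neighbours in this order overlapped, while Hspd1 (201.9 to 218.3) lay above Hspa9 (171.3 to 186.5) in every library. In young AE the ER Hsp70 Hspa5 (210.2 ± 74 CPM per kb) and Hsp90b1 (192.1 ± 62.5) came next, also within each other's spread. The 7 Cct genes called below ran from 41.77 (Cct7) to 171.2 CPM per kb (Cct2) in young ISC and from 17.59 (Cct3) to 60.37 (Cct2) in young AE, and Hspe1 was at 89.85 ± 19.3 and 18.78 ± 7.58. The exchange factor Hspa4, at 57.57 ± 3.98 in young ISC and 42.52 ± 4.25 in young AE, and Bag3, at 23.76 ± 5.89 and 24.33 ± 5.01, kept closer levels. Hspd1, ranked 3 in young ISC and 5 in old ISC, was ranked 11 in young AE and 23 in old AE, at 21.76 ± 2.7 CPM per kb in the last.

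**Figure D1:**
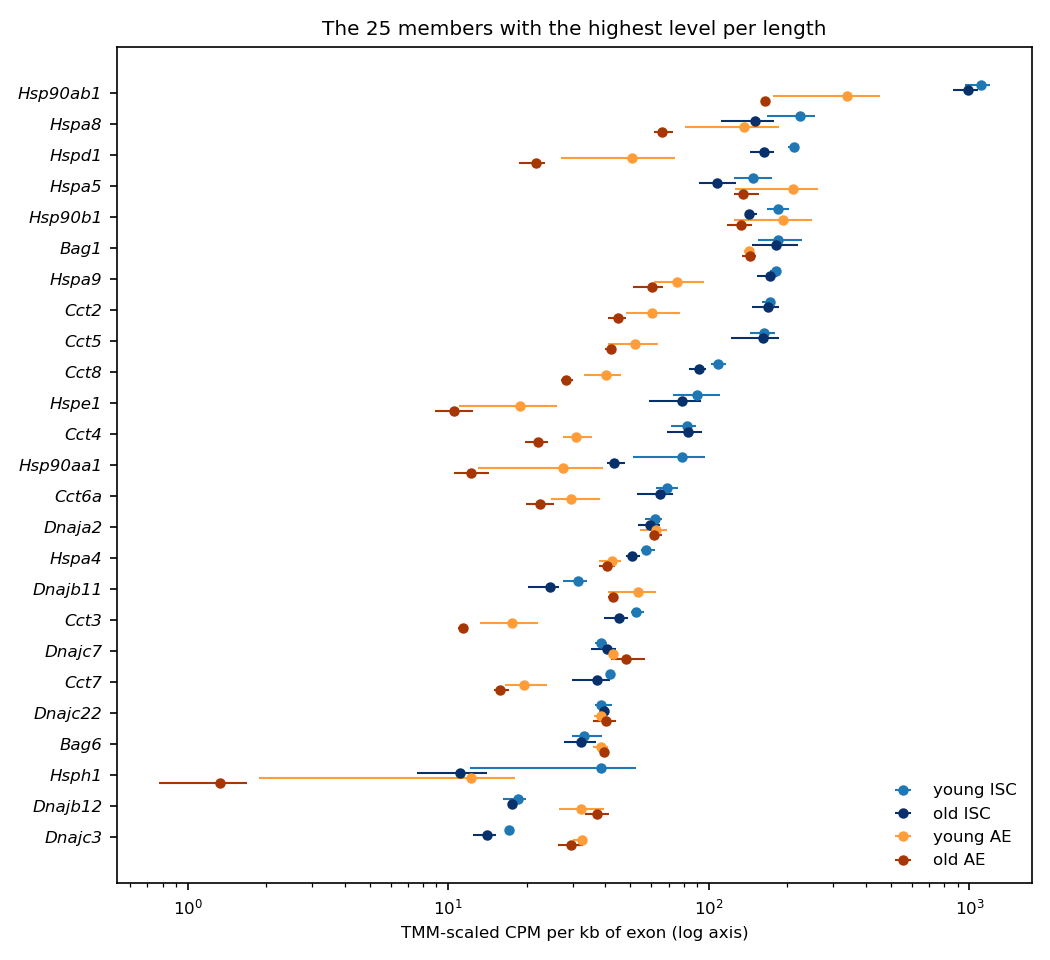
Levels of 25 members in CPM per kb of exon, on a log axis, in young and old ISC and AE. Points are group means (n = 3) and bars run from the lowest to the highest library. Hsp90ab1 is highest in all 4 groups, the means of Hspd1 run from 211.9 CPM per kb in young ISC to 21.76 in old AE, and those of Hspa5 lie between 107.2 and 210.2.

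The stress-inducible members sat lower, within the limit of shared windows given above, and in the young groups they spread more. Per kb, the Hsp110 Hsph1, a nucleotide exchange factor, was at 38.66 ± 23 CPM in young ISC, 11.13 ± 3.3 in old ISC, 12.26 ± 9.02 in young AE and 1.325 ± 0.487 in old AE. The inducible cytosolic Hsp70 gene Hspa1b was at 30.77 ± 18.9, 17.66 ± 1.85, 12.47 ± 8.58 and 4.571 ± 0.916 CPM per kb in the same order. Hspa1a, its near copy, was at 11.47 ± 7.18, 4.667 ± 1.6, 5.546 ± 3.89 and 1.534 ± 0.315. The inducible Hsp90 Hsp90aa1 was at 79.11 ± 24.4, 43.13 ± 3.9, 27.52 ± 13.4 and 12.27 ± 1.93 CPM per kb. By contrast Dnajb1, the J-domain partner of the cytosolic Hsp70, had nearly equal means in all groups, from 21.74 ± 2.71 CPM per kb in old ISC to 26.67 ± 3.26 in young ISC. Hspa2, an Hsp70 best known from the testis, was at 0.3717 to 0.6834 CPM per kb in the 4 groups.

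AE and ISC were then compared within each age. Summed over all members, the level was 13340 ± 1205 CPM in young ISC and 8068 ± 1580 in young AE, and 11390 ± 1146 in old ISC and 6027 ± 100.1 in old AE, without overlap between cell types at either age. As a share of the raw counts, members took 1.375% to 1.855% in ISC and 0.4273% to 0.7354% in AE. With edgeR's quasi-likelihood test and Benjamini-Hochberg adjustment, 43 of 77 tested members differed in young mice, 17 higher and 26 lower in AE, and 53 of 77 in old mice, 20 higher and 33 lower. Among all genes, 55.6% differed in young mice (28.9% higher, 26.7% lower) and 64.9% in old mice (30.6% higher, 34.2% lower), so the share of members called, 55.8% and 68.8%, was near the background at both ages. The median log2 difference of the members was -0.25 in young and -0.40 in old mice, against 0.15 and -0.13 for all genes.

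The young and old comparisons share no library, and their calls can be set side by side. At both ages 16 members were higher and 25 lower in AE, none was called in opposite directions, and 71 of 77 (92.2%) had the same sign. Of the 43 called in young mice 41 (95.3%) were also called in old mice, which is 77.4% of the 53 called there. Over all genes the same shares were 93.7% and 83.2%, with 92.5% of signs equal and 0 calls in opposite directions, so the agreement of the members between the ages was near that of all genes. The directions are described by family and compartment in what follows, and the shares of all genes called higher and lower given above are the background for each count.

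**Figure D2:**
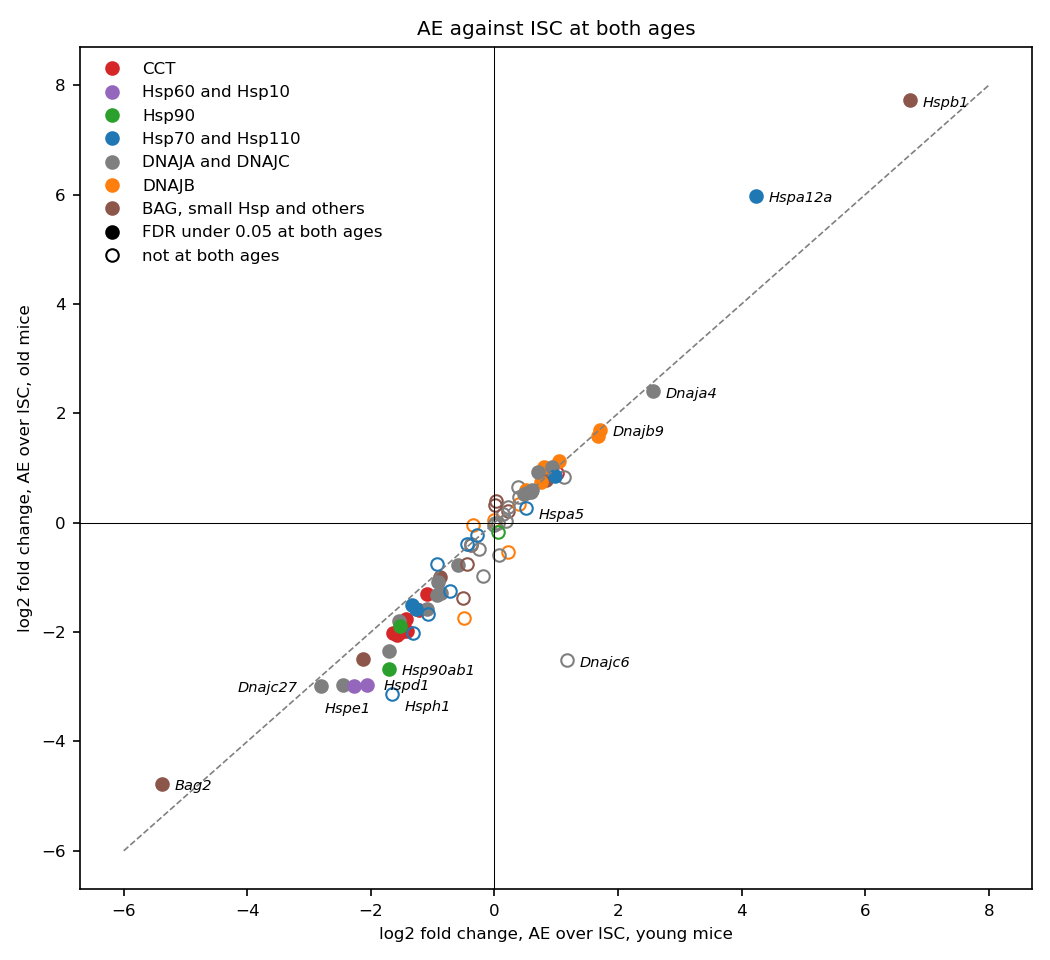
Difference between AE and ISC (log2 fold change) in young mice on the horizontal axis and in old mice on the vertical axis for the 77 members tested at both ages, coloured by family. Filled points passed the test at both ages and the dashed line marks equal values. Cct genes, Hspd1 and Hspe1 sit at the lower left, Dnajb9, Dnaja4 and Hspa12a at the upper right, and Hsph1 below the line at -1.66 and -3.14.

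The cytosolic chaperonin was lower in AE. Of 8 Cct genes tested, 7 were lower in AE at both ages, with a median log2 difference of -1.42 in young and -1.87 in old mice. Cct2 was at 409, 453 and 451 CPM in young ISC Y1, Y2 and Y3 and at 475, 448 and 374 CPM in old ISC O1, O3 and O5. In AE it was at 142, 199 and 122 CPM in the young and 123, 115 and 105 CPM in the old libraries. Every AE library thus lay below every ISC library, with log2 differences of -1.51 ± 0.21 (SE) in young and -1.99 ± 0.18 in old mice. The 7 subunits moved by similar amounts, from -1.09 (Cct7) to -1.65 (Cct5) in young and from -1.31 (Cct7) to -2.05 (Cct3) in old mice. Tcp1, the ring subunit whose symbol the naming rule does not catch, differed by -1.50 ± 0.22 and -2.23 ± 0.19. The eighth Cct gene tested, Cct6b, a testis form of subunit 6, had 3 counts or fewer in some libraries and was not called.

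**Figure D3:**
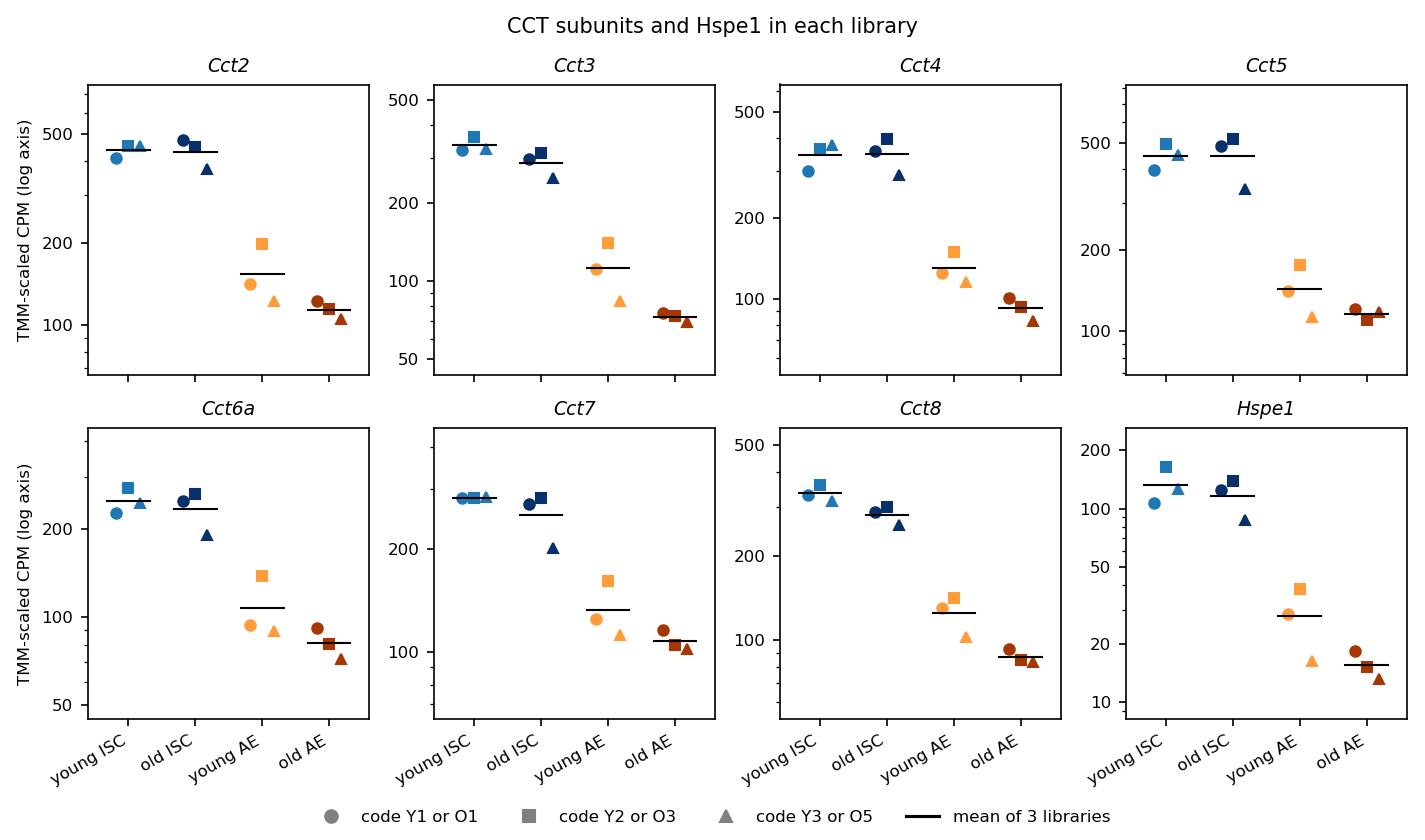
Level (TMM-scaled CPM, log axis) of 7 Cct genes and Hspe1 in the 4 groups, with 1 panel a gene. Points are libraries, with a marker shape for each code, and lines are means of 3 libraries. The ISC libraries lie above the AE libraries in the panel of Cct2, at 374 to 475 against 105 to 199 CPM, and in that of Hspe1, at 87.2 to 163 against 13.1 to 38.5 CPM.

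Mitochondrial chaperones were lower in AE as well. Of 9 tested, 6 were lower in young and 7 in old mice and none was higher, with medians of -0.93 and -1.33. Hspe1, the Hsp10 lid of the mitochondrial chaperonin, was at 107, 163 and 127 CPM in young ISC, 124, 138 and 87.2 in old ISC, 28.3, 38.5 and 16.2 in young AE and 18.3, 15.1 and 13.1 in old AE. Its log2 difference was -2.27 ± 0.32 (adjusted p = 0.000796) in young and -2.98 ± 0.22 (adjusted p = 1.33e-06) in old mice. Hspd1, the Hsp60 barrel whose window covers the elements shown for Hspe1, differed by -2.06 ± 0.34 (adjusted p = 0.00137) and -2.97 ± 0.19 (adjusted p = 5.27e-07). The 2 genes overlap on opposite strands, and 39.7% of the 50-base windows of Hspd1 occur elsewhere in the transcriptome, so its count depends on how such reads were assigned. Hspa9, for which that share is 2.81%, moved by -1.27 and -1.58, and Dnaja3, its J-domain partner, by -1.09 and -1.58.

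ER chaperones went the other way or were level. Of 11 tested, 7 were higher in AE at both ages, with medians of 0.70 and 0.74, and 1, the disulfide reductase partner Dnajc10, was lower in old mice at -0.59. Dnajb9, an ER J-domain protein of the unfolded protein response, was at 16.3, 28.1 and 19.1 CPM in young ISC and 58.5, 89.9 and 59.2 in young AE, and at 21.3, 24.97 and 19.04 in old ISC and 71.8, 77.3 and 73.1 in old AE. It was higher by 1.70 ± 0.26 and 1.70 ± 0.16 on the log2 scale. Dnajc3, an ER co-chaperone and inhibitor of the kinase PERK, was higher by 0.93 ± 0.14 and 1.01 ± 0.16, Hspa13, a microsomal Hsp70, by 0.98 ± 0.17 and 0.86 ± 0.19, and Dnajb11, an ER co-factor of Hspa5, by 0.76 ± 0.19 and 0.74 ± 0.16. Also higher at both ages were Dnajb12, at 0.80 and 1.02, and Dnajc25, at 0.70 and 0.93. The central pair with the ER stress elements did not pass the test. Hspa5 was at 601, 739 and 526 CPM in young ISC and 1107, 1030 and 530 in young AE, and its log2 difference of 0.51 ± 0.30 had an adjusted p of 0.174. Hsp90b1 differed by 0.06 ± 0.27 (adjusted p = 0.86) in young and -0.18 ± 0.18 (adjusted p = 0.408) in old mice. Most of the goblet markers, which stand for secretory cells rich in ER, were higher in AE beside this list, and their part in it was not tested.

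Cytosolic Hsp90 was lower in AE. Hsp90ab1 was at 3607, 3449 and 2894 CPM in young ISC and 1364, 1143 and 529 in young AE, and at 3237, 3080 and 2600 in old ISC and 482, 499 and 494 in old AE. The AE and ISC libraries did not overlap, and the log2 differences were -1.71 ± 0.37 (adjusted p = 0.00447) in young and -2.67 ± 0.24 (adjusted p = 4.49e-06) in old mice. Hsp90aa1 differed by -1.53 ± 0.43 and -1.89 ± 0.17, although 47.5% of its 50-base windows occur in other transcripts.

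Among the Hsp70 genes the directions were mixed. Hspa12a, a distant relative of Hsp70, was at 3.06, 0.227 and 2.25 CPM in young ISC and 38.9, 35.7 and 28.6 in young AE, and at 1.09, 0.27 and 0.578 in old ISC and 47.4, 42.5 and 52.4 in old AE. It was higher in AE by 4.23 ± 0.65 (adjusted p = 0.00163) and 5.98 ± 0.33 (adjusted p = 2.88e-07). Hspa14, a ribosome-associated Hsp70, was lower, at -1.34 ± 0.17 and -1.50 ± 0.19. Hspa8 was called in old mice, at -1.26 ± 0.22 (adjusted p = 0.000537) and not in young mice, at -0.72 ± 0.33 (adjusted p = 0.0896). The inducible pair Hspa1a and Hspa1b was likewise called in old mice, at -1.67 ± 0.31 and -2.02 ± 0.19 and was at -1.08 ± 0.80 and -1.32 ± 0.81 in young mice. None of these 3 was called for a difference between the ages in this contrast, which is the interaction given at the end. Reads of that pair are hard to tell apart, since 66.3% of the windows of Hspa1a and 62.3% of those of Hspa1b occur in other transcripts. Of the Hsp110 relatives, the exchange factor Hspa4 was called in young mice at -0.44 ± 0.16 (adjusted p = 0.0467) and missed the threshold in old mice at -0.39 (adjusted p = 0.0502), while its relative Hspa4l was at -0.29 and -0.22, not called. Hspa2 was at -0.92 and -0.76, not called.

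The Hsp110 gene Hsph1 was at 381, 374 and 87.8 CPM in young ISC, 55.0, 85.2 and 102 in old ISC, 123, 131 and 13.6 in young AE and 5.61, 12.27 and 11.01 in old AE. Its log2 difference was -1.66 ± 0.91 (adjusted p = 0.163) in young and -3.14 ± 0.33 (adjusted p = 2.02e-05) in old mice. In young mice the values of Y1 and Y2 in AE lay above that of Y3 in ISC, so the cell types overlapped. In each of the 6 codes the AE level was nevertheless below the ISC level of the same code, at 32.2%, 35.0% and 15.5% of it in Y1, Y2 and Y3 and 10.2%, 14.4% and 10.8% in O1, O3 and O5.

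Of the 15 HSF1 targets, 2 were higher and 5 lower in AE of young mice and 4 higher and 9 lower in old mice, with medians of -1.08 and -1.67. Among all genes 28.9% were higher and 26.7% lower in young mice, and 30.6% and 34.2% in old mice. The higher ones at both ages were Hspb1 and Dnajb4. Hspb1, the small heat shock protein Hsp27, had 1 count in ISC Y1 and none in the other 5 ISC libraries. In AE it was at 5.97, 0.331 and 1.76 CPM in the young and 2.47, 0.985 and 1.09 CPM in the old libraries. It was at least 11.99-fold higher in old AE than in old ISC, taking 3 counts per library as the limit of detection, with an adjusted p of 0.000479, and in young mice its adjusted p was 0.00841. About 50.1% of its windows occur in other transcripts. Dnajb4 was higher by 1.67 ± 0.24 and 1.58 ± 0.17. In old mice the J-domain protein Dnaja1 (0.66 ± 0.15, adjusted p = 0.00285) and Bag3, the BAG protein of selective autophagy (0.39 ± 0.14, adjusted p = 0.033), were also higher, and Dnajb1 was at 0.06, not called.

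The BAG family split as well. Bag2, an inhibitor of the ubiquitin ligase CHIP, was at 6.32, 7.38 and 6.68 CPM in young ISC and 0.164, 0.165 and 0.156 in young AE, and at 6.71, 5.18 and 3.83 in old ISC and 0.0951, 0.0896 and 0.436 in old AE. With log2 differences of -5.38 ± 0.35 (adjusted p = 4.27e-05) and -4.78 ± 0.54 (adjusted p = 9.16e-06) it had the lowest value of all members at both ages. Its counts in AE were between 1 and 13, of which the highest came from the deep library Y3, so the size of the difference rests on few counts. Hspbp1 was lower, at -2.14 ± 0.25 and -2.50 ± 0.20, and Bag4, a silencer of death receptors, was higher by 0.83 ± 0.16 and 0.78 ± 0.14. Bag1 did not pass the test, at -0.38 (adjusted p = 0.114) and -0.40 (adjusted p = 0.0802).

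The J-domain families cut across these compartments. Of 11 Dnajb genes tested, 6 were higher and none lower in AE at both ages (Dnajb2, Dnajb4 and the ER members Dnajb9, Dnajb11, Dnajb12 and Dnajb14), whereas of 26 Dnajc genes 6 were higher and 8 lower in young mice and 7 higher and 10 lower in old mice. The Dnajc counts lay near the background, as 28.9% of all genes were higher and 26.7% lower in young mice. In old mice these shares were 30.6% and 34.2%. Dnaja4 was at 4.08, 5.05 and 2.58 CPM in young ISC and 39.6, 14.1 and 16.0 in young AE, and at 3.84, 3.61 and 2.05 in old ISC and 25.5, 14.9 and 12.8 in old AE. It was higher by 2.56 ± 0.46 and 2.40 ± 0.33, with 42.7% of its windows shared with other transcripts. Dnajb2, a J-domain protein that binds ubiquitin, was higher by 1.05 ± 0.28 and 1.13 ± 0.16. Dnajc9, a histone chaperone, was at 54.3, 61.8 and 58.6 CPM in young ISC and 9.49, 14.1 and 8.69 in young AE, and at 59.6, 52.9 and 49.2 in old ISC and 8.66, 6.63 and 6.43 in old AE. It was lower, at -2.45 ± 0.22 and -2.97 ± 0.19. Dnajc2, a chaperone bound to ribosomes, was lower, at -1.71 ± 0.19 and -2.35 ± 0.19, and Dnajc27, a small GTPase with a J domain, by -2.81 ± 0.39 and -2.98 ± 0.50. Dnajc12 was higher in young mice by 1.12 ± 0.35 (adjusted p = 0.023) and at 0.84 ± 0.38, not called, in old mice.

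Further members were called at both ages. Among those lower in AE, Dnajc18 was at -1.55 ± 0.27 and -1.79 ± 0.25, Dnajc15, a mitochondrial J-domain protein, at -0.87 ± 0.27 and -1.29 ± 0.23, and Dnajc11, Dnajc21, Bag5 and Dnajc8 at -0.93, -0.91, -0.88 and -0.59 in young mice. Among those higher, Dnajc5, the cysteine string protein of vesicle release, was at 0.48 ± 0.14 and 0.53 ± 0.17, and Dnajb14, Dnajc13 and Dnajc14 were at 0.50, 0.60 and 0.59 in young mice. Hspb11, which is no small heat shock protein by function, was called in old mice at -1.37 ± 0.37 (adjusted p = 0.00828) and was at -0.50 ± 0.37 in young mice. A further 22 members were called at neither age. They include abundant ones with narrow errors: Dnaja2, a J-domain partner of cytosolic Hsp70, was at 62.22 ± 4.81 CPM per kb in young ISC and 62.63 ± 7.43 in young AE, a log2 difference of 0.01 ± 0.16, and Dnajc22 was at 38.63 ± 3.36 and 38.56 ± 2.27. Bag6, a holdase for membrane proteins, was at 0.22 ± 0.17 and 0.22 ± 0.16 on the log2 scale.

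The wider chaperone pathway was followed in a list of co-factors and chaperones with other names. In young mice 4 of 48 tested were higher and 21 lower in AE, with a median of -0.47, and in old mice 4 of 47 were higher and 25 lower, with a median of -0.89. Hsf1, the heat shock factor itself, was lower, at -1.65 ± 0.20 and -1.92 ± 0.18. Ppid, a cyclophilin of Hsp90 complexes, was at -2.16 ± 0.28 and -2.62 ± 0.16, and Trap1, the mitochondrial Hsp90, at -1.53 ± 0.20 and -2.02 ± 0.18. The collagen chaperone Serpinh1 was called in young mice at -1.86 ± 0.69 (adjusted p = 0.0427), although its libraries overlapped. Among those higher at both ages were Unc45a, a co-chaperone of myosin folding, at 0.74 ± 0.17 and 0.72 ± 0.16, and the mitochondrial immunophilin Fkbp8, at 0.60 ± 0.16 and 0.63 ± 0.18. Proliferation markers, at 2247 to 2836 CPM in sum in ISC and 135 to 657.7 in AE, moved with the members that were lower in AE, and their part was not tested.

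The effect of age was tested next within each cell type. With edgeR's quasi-likelihood test and Benjamini-Hochberg adjustment, 0 of 76 members were called in ISC and 0 of 78 in AE, as was 0% of the 15552 and 16265 genes tested. DESeq2 also called 0 members, among 59 genes (0.379%) called in ISC and 17 (0.105%) in AE, and limma-voom called no gene in either. At an unadjusted p under 0.05, 9 members were lower and 0 higher in old ISC, where 2.67% of all genes were lower and 2.37% higher, and 17 were lower and 1 higher in old AE, where 2.88% were lower and 1.91% higher. Groups of 3 did not overlap for 10 lower members (background 4.41%) and 2 higher members (background 4.43%) in ISC, and for 15 lower (background 6.98%) and 2 higher members (background 3.95%) in AE. An exact permutation test of 3 against 3 libraries cannot give a two-sided p below 0.1. Over all members, 49 of 76 in ISC and 49 of 78 in AE had a negative log2 difference, where 47.8% and 54.7% of all genes did. The lean was slight in size, with medians of -0.08 and -0.13 against 0.01 and -0.04 for all genes.

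The HSF1 targets accounted for 7 of the 9 members with an unadjusted p under 0.05 in ISC and 8 of the 18 in AE. Their list was chosen with earlier results of these data known. In ISC 13 of 14 tested had a negative difference, and the median was -0.47. In AE it was 13 of 15, and the median was -0.81. Summed over the list, young ISC Y1, Y2 and Y3 were at 7094, 6925 and 5292 CPM and old ISC O1, O3 and O5 at 5479, 5458 and 4463, while young AE were at 3218, 2889 and 1453 CPM and old AE at 1326, 1382 and 1328. Most of each sum came from the constitutive Hsp90ab1 and Hspa8, which were at 3607 and 1098 CPM in ISC Y1. The sums therefore mainly describe these genes. In both cell types the sum of Y3 was the lowest of the young group, inside the old range in ISC and just above it in AE.

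**Figure D4:**
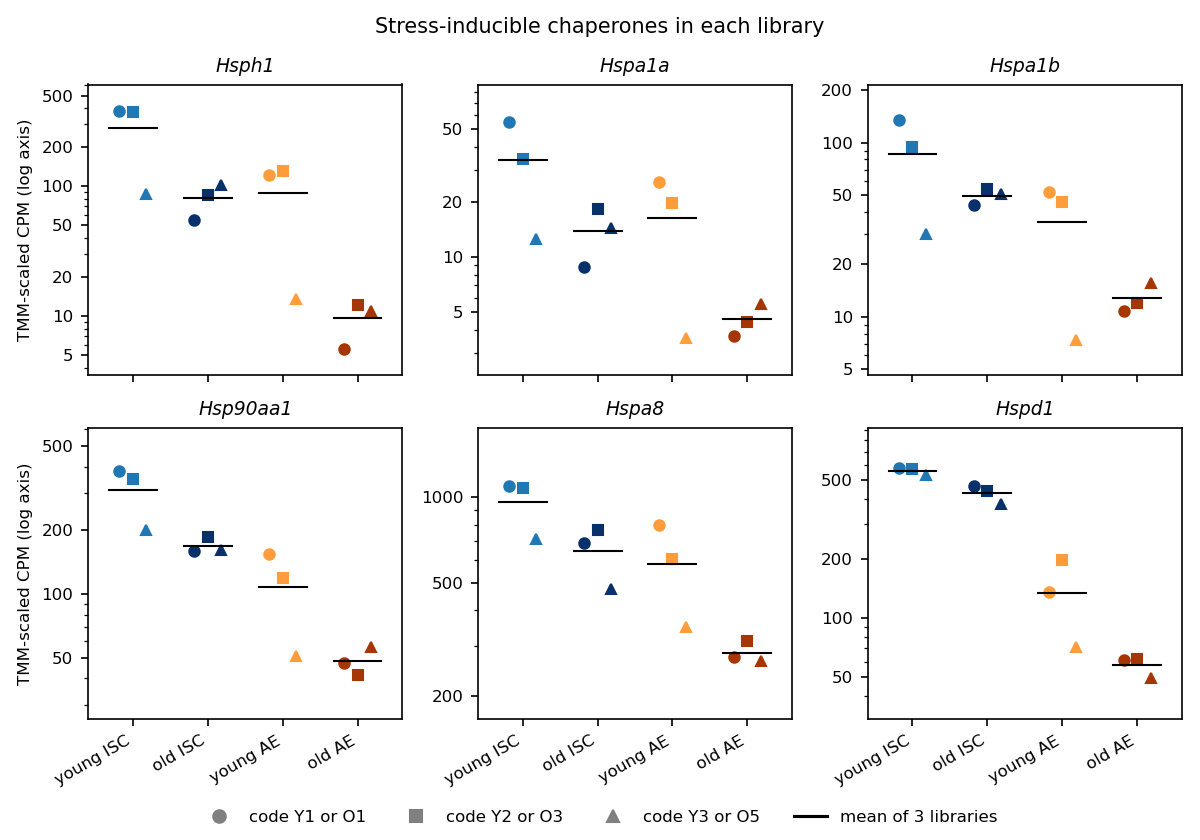
Level (TMM-scaled CPM, log axis) of Hsph1, Hspa1a, Hspa1b, Hsp90aa1, Hspa8 and Hspd1 in the 4 groups, with 1 panel a gene. Points are libraries, with a marker shape for each code, and lines are means of 3 libraries. Y3 is the lowest young library in both cell types for Hsph1 (87.8 in ISC, 13.6 in AE), Hspa1b (29.8 and 7.40) and Hsp90aa1 (202 and 50.9).

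Hsph1 had the largest difference of the list in both cell types. Its values given above overlapped between young and old ISC, where the log2 difference was -1.79 ± 0.57 (unadjusted p = 0.0186, adjusted p = 0.922). In AE the lowest young value of 13.6 CPM lay just above the highest old value of 12.3, with a difference of -3.18 ± 0.91 (unadjusted p = 0.0147, adjusted p = 0.844). Without the young AE library Y3 the difference was -3.69 ± 0.29 with an adjusted p of 0.0129, and Hsph1 was then the 1 gene called of 14848. A call for this gene therefore turned on 1 library, the deepest one. Leaving out any single library in turn gave values of -3.69 to -2.77 in AE and -2.21 to -1.51 in ISC.

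Hspa1a was at 55.1, 34.5 and 12.5 CPM in young ISC and 8.84, 18.3 and 14.4 in old ISC, and at 25.9, 19.8 and 3.61 in young AE and 3.71, 4.39 and 5.56 in old AE. Its log2 differences of -1.30 ± 0.53 and -1.79 ± 0.70 were not called, and Y3 lay inside the old range in ISC and below it in AE. Hspa1b, whose promoter is nearly the same, was at 135, 94.2 and 29.8 CPM in young ISC and 43.8, 53.9 and 50.8 in old ISC, and at 51.8, 45.7 and 7.40 in young AE and 10.75, 12 and 15.69 in old AE. Here Y3 was below all old libraries of its cell type, and the differences were -0.79 ± 0.48 and -1.41 ± 0.68.

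The Hsp90 genes and Hspa8 each separated the ages in a single cell type and overlapped in the other. Hsp90aa1 was at 381, 350 and 202 CPM in young ISC and 160, 187 and 162 in old ISC, without overlap, and at 155, 119 and 50.9 in young AE and 47.1, 41.3 and 56.3 in old AE, with overlap. The log2 difference of -0.87 ± 0.23 in ISC had the lowest unadjusted p of the members there (0.00431, adjusted p = 0.777). In AE the difference was -1.14 ± 0.37. Hsp90ab1 was at -0.15 in ISC, where its young libraries at 2894 to 3607 CPM overlapped the old ones at 2600 to 3237. In AE it was at -1.02 ± 0.31, and its young libraries at 529 CPM and above did not overlap the old ones at 482 to 499. Hsp90b1 did not overlap in ISC, at 677 to 821 CPM in the young and 552 to 614 in the old libraries. In AE it overlapped, at 505 to 1004 and 474 to 590 CPM. Hspa8 was at 1098, 1076 and 716 CPM in young ISC and 691, 768 and 477 in old ISC, and at 799, 606 and 348 in young AE and 273, 312 and 266 in old AE. Its ages overlapped in ISC and did not in AE, with a difference of -1.02 ± 0.27 (unadjusted p = 0.00478, adjusted p = 0.844).

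Further members that did not overlap were found among the low unadjusted p. Of those that follow, Hspa4l, Hspd1 and Dnaja1 are HSF1 targets of the list and already part of its counts and medians above. Dnaja3, Dnajc6 and Dnajb3 are not on it. Hspa4l, an Hsp110 of the testis and other tissues, was at 79.3, 51.2 and 43.3 CPM in young ISC and 25.3, 32.4 and 41.8 in old ISC, and at 64.0, 43.6 and 35.4 in young AE and 29.3, 30.01 and 30.62 in old AE, so that all old libraries lay below all young ones in both cell types. Its differences were -0.80 ± 0.26 and -0.64 ± 0.21. Hspd1 was at 577, 569 and 534 CPM in young ISC and 471, 442 and 378 in old ISC, and at 136, 196 and 71.3 in young AE and 61.3, 62.0 and 49.3 in old AE. It did not overlap in either cell type, with differences of -0.37 ± 0.15 and -1.20 ± 0.34 that were not called. Dnaja1, at -0.72 ± 0.25 in ISC, overlapped there, and Dnaja3 in AE, at 55.3, 61.4 and 59.1 CPM in the young and 42.8, 38.9 and 38.8 in the old libraries, did not (difference -0.53 ± 0.14, unadjusted p = 0.00469, adjusted p = 0.844). Dnajc6, the clathrin uncoating partner of Hsp70, and Dnajb3 in old AE had at most 1 and 3 counts per library, so their separation from young AE rests on values at the limit of detection.

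Of the tested members 27 in ISC and 29 in AE had a positive age difference. In AE, Hspa12a had the difference of 0.49 ± 0.17 (unadjusted p = 0.018, adjusted p = 0.844), with each old library above each young one in the values given above. The others with the lowest unadjusted p in that direction were Dnajb5 at 0.53 ± 0.33 and Dnajc24, a diphthamide synthesis factor, at 0.35 ± 0.23 without overlap. In ISC they were Dnajc17 at 0.44 ± 0.32, Dnajc28 at 0.29 ± 0.21 and the small heat shock protein Hspb6 at 0.34 ± 0.26, and of these Hspb6 did not overlap, nor did Dnajc18 at 0.21 ± 0.18.

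**Figure D5:**
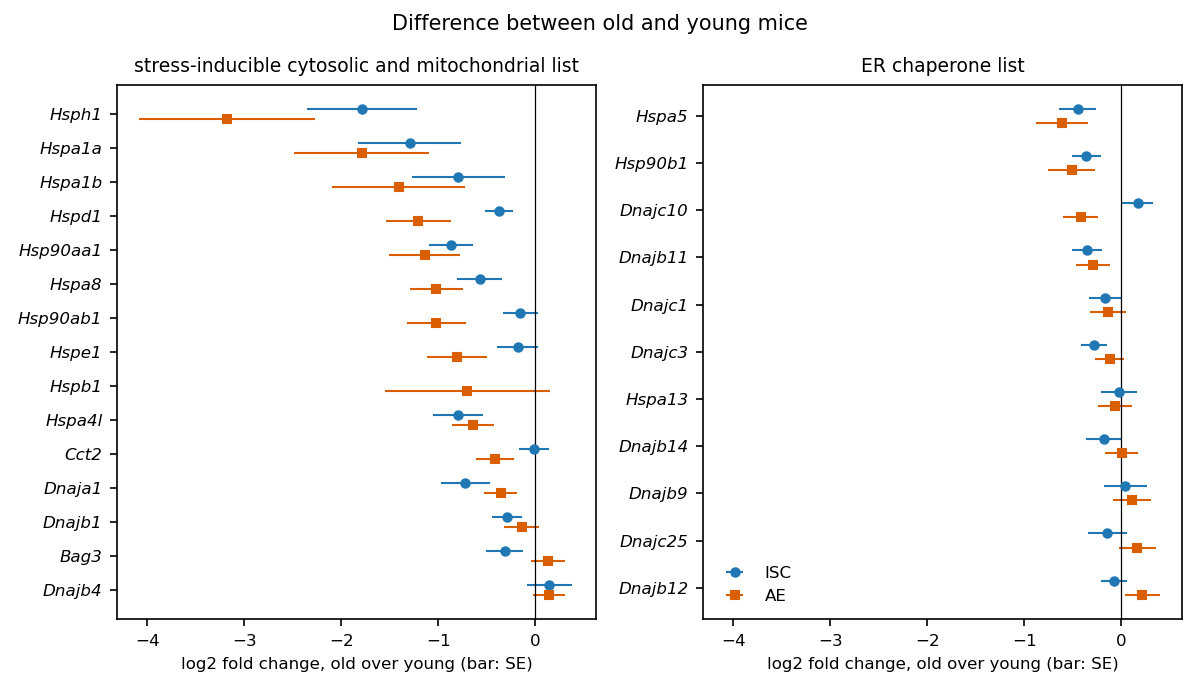
Difference between old and young libraries (log2 fold change, with its standard error) in ISC (circles) and AE (squares) for the HSF1 targets on the left and the ER chaperones on the right. No value passed an adjusted p of 0.05. Hsph1 is farthest from 0, at -1.79 in ISC and -3.18 in AE, and Hspa5 is the lowest ER chaperone, at -0.45 and -0.61.

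The other compartments had medians nearer to 0. In ISC 9 of 11 ER chaperones had a negative difference (median -0.16) and in AE 7 of 11 (median -0.12). Hspa5 was at -0.45 ± 0.19 (unadjusted p = 0.042) in ISC and -0.61 ± 0.27 (unadjusted p = 0.0481) in AE, in which Y3 at 530 CPM again lay among the old libraries at 526 to 656. Of the Cct genes 5 of 8 were negative in ISC with a median of -0.05, and in AE 7 of 8 were negative with a median of -0.39. All old libraries lay below all young ones for 2 of 8 in ISC (Cct3 and Cct8), as for 4.41% of all genes. In AE this held for 3 of 8, as for 6.98% of all genes, and 0 were higher without overlap in either cell type. Summed, the Cct genes were at 868.2, 1106 and 740.2 CPM in young AE and 721.6, 662.5 and 633.5 in old AE. For mitochondrial chaperones 6 of 9 were negative in ISC (median -0.11) and 7 of 9 in AE (median -0.43). Of the wider pathway list, 0 genes were called, and 36 of 49 in ISC and 36 of 47 in AE were negative, with medians of -0.06 and -0.29.

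Several marker lists moved with age or with the same libraries, without any call. In old AE 18 of 18 proliferation markers (median log2 difference -1.32), 10 of 13 stem cell markers (-0.99), 7 of 7 Paneth cell markers (-0.95) and 8 of 8 tuft cell markers (-0.56) had a negative age difference, and 20 of 20 enterocyte markers (0.38) a positive one. In old ISC 8 of 8 markers of T cells and intraepithelial lymphocytes were negative (-3.17), with summed levels of 18.05, 6.978 and 8.475 CPM in the young and 2.385, 2.697 and 0.8006 CPM in the old libraries, and 4 of them did not overlap. Of the 10 markers listed, 5 had 3 counts or fewer in every old ISC library. Only 2 exceeded 3 counts in all old ISC libraries, so these values lie near the limit of detection. In young AE, Y2 was the highest library for 12 of 13 stem cell markers, 18 of 18 proliferation markers and 7 of 8 Cct genes, and Y3 was the lowest for 11, 15 and 7 of them. For the HSF1 targets, Y3 was the lowest young library for 11 of 14 in ISC (31.9% of all genes) and 13 of 15 in AE (30% of all genes). The summed enterocyte markers of ISC were 4925, 4541 and 11040 CPM in Y1, Y2 and Y3 and 2146, 6124 and 3335 CPM in O1, O3 and O5. All 20 enterocyte markers had a negative difference in old ISC, with a median of -0.94. Immediate early genes, which respond quickly to many stimuli, leaned upward: 16 of 17 had a positive difference in old ISC (median 0.41), with sums of 1857, 1121 and 1576 CPM in the young and 2701, 1633 and 2086 CPM in the old libraries, and in AE 11 of 16 did (median 0.21). The part of these lists in the values of the members was not tested.

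The spread within groups was itself uneven. Over the HSF1 targets the highest library exceeded the lowest by a median of 2.376-fold in young AE and 1.649-fold in young ISC, against 1.219-fold in old AE and 1.257-fold in old ISC. The median over all genes was 1.48, 1.354, 1.348 and 1.4 in the same order. In young AE 9 of the 15 exceeded 2-fold, compared with 27.3% of all genes. Hsph1 spanned 9.618-fold in young AE and 4.335-fold in young ISC, and Hspa1a 7.184-fold and 4.402-fold.

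Whether age acted differently in AE and ISC was asked with an interaction term. With edgeR's quasi-likelihood test, 0 of 78 members were called after Benjamini-Hochberg adjustment, against 0.00575% of all genes (1 gene), and at an unadjusted p under 0.05 there were 4 members lower (2.12% of all genes) and 1 higher (1.76% of all genes). Lower differences in AE than in ISC were found for Dnajc10 (-0.60 ± 0.25), Dnaja3 (-0.42 ± 0.18), Hspd1 (-0.84 ± 0.38) and Hsp90ab1 (-0.88 ± 0.40), and a higher one for Hspa12a (1.83 ± 0.76), each with an adjusted p of 1. Bag3, at 0.43 ± 0.27, and Hspbap1, at 0.38 ± 0.30, were next among the higher ones. A difference in the age effect between the cell types was thus not detectable for these members with 3 libraries a group.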

How the data were processed

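Poly(A) RNA of sorted ISC and AE was sequenced from 12 libraries. The authors trimmed reads with Trim Galore 0.4.4, aligned them to GRCm38 with HISAT2 2.1.0 and counted uniquely mapped reads over merged transcripts in SeqMonk. The deposited table holds raw counts for 34245 genes. Its annotation release and strand setting are not given in the sources used here. A further table of the authors' own log2 differences and -log10 FDR values was not used. In 8 of 12 titles the code and the text name different groups, so columns were assigned by their own names, and 0 columns were left unused.

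Counts were tested in R 4.3.3 with edgeR 4.0.16 (quasi-likelihood, robust, TMM scaling, total count of at least 10 in the libraries compared) over all genes, with Benjamini-Hochberg adjustment at 0.05. CPM are TMM-scaled, errors of fold changes are standard errors and those of levels are SD. AE were compared with ISC within each age, old with young within each cell type, and an interaction term compared the age effects. Over all genes, deviations from group means correlated in 6 of 6 ISC and AE pairs of the same code (0.121 to 0.287) and by -0.214 to 0.0584 in 12 pairs of different codes. Blocking on the code was therefore tried. Over the members alone the 2 kinds of pair overlapped, at -0.114 to 0.574 for the same code and -0.587 to 0.317 for different codes. Alternatives were RLE and upper-quartile scaling, other filters, DESeq2 1.42.0, limma-voom (limma 3.58.1), a fit on all groups, the replicate block and leaving out each library. The fit was tested on simulated counts with known changes. Promoter sequences are from RefSeq on GRCm38.p6, and shares of 50-base windows found in other transcripts were computed from GENCODE transcripts, which differ in coordinates from the table for 9 members.

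Members, gene lists and tests were chosen with earlier results of these data known. Named genes were the core heat shock genes, the 10 largest called differences each way between AE and ISC at each age, the members called with age or otherwise the 3 with the lowest p each way, up to 3 with the largest change each way among those without overlap, the most abundant members and those without counts. From the wider pathway list up to 3 called genes each way were named, and a result of that list is not reported here. Further members, such as Dnajb11, Dnajc10, Dnajc18, Hspb11, Dnaja2 and Bag6, were named after their values were seen.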

Additional observations from a re-analysis of the deposited data

How the results depend on the processing

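Over scalings, filters, tools and fits, 42 to 49 members were called between AE and ISC in young mice and 52 to 56 in old mice, beside 45.2% to 64% and 53.8% to 71.5% of all genes. With age and for the interaction 0 members were called, while DESeq2 called 59 (ISC), 17 (AE) and 43 (interaction) genes in all. Of 717 such values for the 85 named member comparisons, 716 kept their direction and their side of the threshold, as did 534 of 545 values with a library left out. For the age and interaction results among them, keeping the side means only staying uncalled. A missing adjusted p counted as unchanged where the direction held. With the code as a replicate block, which pairs ISC and AE libraries of an age, 49 members were called in young mice (19 higher, 30 lower) and 56 in old mice (21 higher, 35 lower), and 0 for the interaction, where it called 19 genes in all. No paired analysis was possible because young and old libraries share no code, as far as the age comparisons within a cell type are concerned. Leaving out 1 library gave 35 to 40 called members in young mice, 46 to 56 in old mice, 0 to 0 for age in ISC, 0 to 1 for age in AE and 0 to 0 for the interaction. The 1 was Hsph1 without the young AE library Y3.

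Values near 0 turned direction. Cct2 with age in ISC was at 0.0048 with upper-quartile scaling and ranged from -0.0816 to 0.089 with a library left out, and Hspe1 in ISC ranged from -0.3226 to 0.0016 (without young ISC Y2). Hspb1 in AE, whose difference was not near 0, ranged from -1.2618 to 0.2326. It turned without young AE Y1, which at 5.97 CPM was the highest young AE library, against 0.331 CPM in the lowest. The causes were not tested. In young mice, Dnajc12 and Dnajb2 lost their call without some single libraries, at 0.88 to 1.15 and 0.87 to 0.99. Upper-quartile scaling moved the median difference of all genes between AE and ISC in young mice from 0.151 to 0.0272. With 3 libraries a group and totals of 11893817 counts and more, members at 3 counts or fewer are beyond reach.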
